A study of Mus musculus with 12 samples.

Results

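ON bipolar cells are the retinal interneurons that receive glutamate from rods and cones and depolarise when light stops its release. This account follows 9 genes of their signalling pathway, Grm6, Trpm1, Gpr179, Nyx, Lrit3, Prkca, Pcp2, Cabp5 and Rgs11, which were chosen by name. All 9 were found in the deposited table of 56748 mouse genes. On chromosome 11 lie Grm6 (ENSMUSG00000000617), Gpr179 (ENSMUSG00000070337) and Prkca (ENSMUSG00000050965), and on chromosome 7 lie Trpm1 (ENSMUSG00000030523) and Cabp5 (ENSMUSG00000005649). Nyx (ENSMUSG00000051228) is on chromosome X, Lrit3 (ENSMUSG00000093865) on 3, Pcp2 (ENSMUSG00000004630) on 8 and Rgs11 (ENSMUSG00000024186) on 17. The study compared mice that had lost the tyrosine phosphatase Shp2 (gene Ptpn11) in rods with littermate controls at 2 weeks of age. Translating ribosome affinity purification (TRAP) with an antibody against HA was used to pull down the mRNA on HA-tagged ribosomes of rods, and the whole-retina RNA taken before that step was sequenced beside it. There were 12 libraries, 3 each of Het retina, KO retina, Het rods and KO rods.

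Every mouse was homozygous for RiboTag, the allele in which Cre switches on the HA tag of the ribosomal protein Rpl22, and every mouse carried i75-Rod-Cre, in which the rhodopsin promoter drives Cre. Het mice were Shp2 fl/+ and KO mice were Shp2 fl/fl, so the controls were Cre-positive and lacked 1 working Shp2 allele in rods. GEO's titles name the controls wt, but the genotype given for them is the heterozygote. Mice were perfused with cycloheximide before the tissue was frozen, and cDNA was made with a SMART-Seq V4 kit. No source states which libraries came from the same animal or whether animals were pooled, so p-values measure the spread between these libraries only.

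At the synapse between rods and ON bipolar cells, glutamate binds the receptor mGluR6 on the bipolar dendrite. The receptor acts through the G protein Go to close the cation channel TRPM1. In light the glutamate falls, regulators of G protein signalling speed the shut-off of Go, and the channel opens. Loss of mGluR6, TRPM1, GPR179, nyctalopin or LRIT3 causes congenital stationary night blindness, in which the ON response of the electroretinogram is missing.

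The promoters of 4 members are printed here because these genes stand on either side of the contrast that follows. Lrit3 and Prkca were not depleted from rod TRAP RNA, whereas Trpm1 and Cabp5 were, and the latter are shown because TAATCC was found in them. Each sequence runs from 250 bases before to 50 bases after a gene start given by RefSeq on GRCm38.p6, and is written 5′ to 3′ on the strand of the gene. Capitals mark matches on either strand to TAATCC (the core bound by Crx and Otx2), TAATTA (a homeodomain core), TGCTGA (a site of the Maf and Nrl family) or CATGTG (an E-box that MITF, a factor of pigment cells, can bind). No motif overlapped another in these 4 sequences.
Lrit3 (chr3:129804087-129804386, minus strand): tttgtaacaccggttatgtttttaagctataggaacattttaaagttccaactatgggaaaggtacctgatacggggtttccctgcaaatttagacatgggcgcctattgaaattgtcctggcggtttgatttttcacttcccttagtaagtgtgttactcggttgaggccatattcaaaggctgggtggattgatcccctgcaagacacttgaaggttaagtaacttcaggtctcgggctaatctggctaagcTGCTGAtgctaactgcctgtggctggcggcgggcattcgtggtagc
Prkca (chr11:108343839-108344138, minus strand): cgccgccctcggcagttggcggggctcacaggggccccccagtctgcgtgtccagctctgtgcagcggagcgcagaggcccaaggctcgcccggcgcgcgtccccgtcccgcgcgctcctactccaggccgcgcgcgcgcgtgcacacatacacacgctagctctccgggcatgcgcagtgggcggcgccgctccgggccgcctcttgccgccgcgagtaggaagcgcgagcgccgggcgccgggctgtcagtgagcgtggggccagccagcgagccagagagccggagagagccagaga
Trpm1, first of 2 starts (chr7:64153585-64153884, plus strand): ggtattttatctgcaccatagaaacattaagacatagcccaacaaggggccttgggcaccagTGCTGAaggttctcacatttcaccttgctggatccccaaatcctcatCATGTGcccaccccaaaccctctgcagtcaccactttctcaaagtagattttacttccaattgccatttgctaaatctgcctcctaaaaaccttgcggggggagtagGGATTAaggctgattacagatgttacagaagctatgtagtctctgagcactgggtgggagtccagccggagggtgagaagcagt
Cabp5 (chr7:13397905-13398204, plus strand): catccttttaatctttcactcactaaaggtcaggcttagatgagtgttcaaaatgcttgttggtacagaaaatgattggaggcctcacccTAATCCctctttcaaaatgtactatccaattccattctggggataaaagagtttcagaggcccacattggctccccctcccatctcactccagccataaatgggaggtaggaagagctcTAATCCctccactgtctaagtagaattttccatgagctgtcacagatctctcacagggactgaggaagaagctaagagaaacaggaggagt
TAATCC occurred at 2 positions in Cabp5, 160 and 41 bases before the start, and at 1 position in Trpm1, 34 bases before it. No other member held it, so that 2 of the 8 members with a promoter did. Grm6, Gpr179 and Nyx, which were also depleted from rods, held none of the 4 motifs, and of 4 Pcp2 starts 1 held TAATTA and 1 held CATGTG. The Trpm1 sequence also held TGCTGA and CATGTG, and CATGTG was present at the second Trpm1 start too. Lrit3 held TGCTGA 5 bases after its start, and Prkca, whose promoter had a GC content of 75.3%, held none of the 4 motifs. Among all 32851 promoters, 7.06% held TAATCC, 5.29% TAATTA, 19.5% TGCTGA and 14.2% CATGTG. These shares count each start on its own. A member was counted if any of its starts held the motif, so the 2 counts are not alike. A promoter was given for 8 of the 9 members. The matches are letters in a window and were not tested for binding.

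The deposited values are whole numbers scaled by the authors, since totals ran only from 14525527 to 14527992 over 6 retina libraries and from 16263948 to 16265259 over 6 rod libraries. The reads behind them were estimated as 9980000 to 19230000 in retina and 11890000 to 25280000 in rods, and 3 reads, the floor used here, correspond to between 1.93 and 4.37 deposited units. Ptpn11 itself ranged from 2125 to 2512 in Het and from 2147 to 2466 in KO retina, and from 2431 to 2511 in Het and from 1735 to 2139 in KO rods. Its log2 fold change in KO rods was −0.28 (SE 0.09, adjusted p = 0.040, limma), without overlap between genotypes. This was under the size limit of 0.5 used here for a call. In the same comparison 25.7% of all genes had an adjusted p under 0.05, and for 44.8% the genotypes did not overlap, and a value for the whole gene does not show the deleted exons by themselves. All 10 rod markers were higher in Het rods than in Het retina (median log2 fold change 1.82), while all 8 cone markers were lower (median −1.11). The 10 Müller markers (median −4.92), 8 amacrine markers (median −4.88) and 8 ganglion cell markers (median −5.13) were all lower. Other bipolar markers behaved likewise, with all 12 lower (median −4.84), as were all 6 horizontal cell markers (median −3.77). By the rule for a call given below, 21.4% of all genes were higher and 36.8% lower in this comparison. In the rod libraries alone, 8 bipolar, 5 amacrine, 6 ganglion cell and 2 horizontal cell markers had enough signal for a test. The others of these lists were tested here only through their retina values, so their direction carries no weight of its own. In Het rods 1 horizontal cell marker was listed at 0 in every library, and no other marker was at 0 throughout a group.

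In the retina, where the bipolar cells are, all 9 genes were well above the floor. Levels were set per kilobase of transcript and per 1000000 of the library total (ppm), so that genes can be compared. The Het retina level was highest for Cabp5 at 73.9 ± 7.67 (SD, n = 3), followed by Trpm1 at 43.9 ± 8.16, Prkca at 41.7 ± 7.21 and Lrit3 at 30.9 ± 5.91. Grm6 followed at 17.1 ± 3.86, then Pcp2 at 13.4 ± 9.07, Gpr179 at 13.0 ± 3.8, Rgs11 at 9.05 ± 1.94 and Nyx at 4.19 ± 0.321. The 3 values of Cabp5 lay above all of Trpm1, those of Lrit3 above all of Grm6, and those of Rgs11 above all of Nyx, whereas every other pair of neighbours in this order overlapped. In Het rods the order on the same scale began with Lrit3 at 40.4 ± 1.67 and Prkca at 31.6 ± 5.30, and Cabp5 followed at 2.40 ± 0.144. Trpm1 at 0.797 ± 0.103 came next, and Nyx, Grm6, Gpr179, Pcp2 and Rgs11 lay between 0.153 and 0.320, each overlapping its neighbour. The values of Lrit3, Prkca, Cabp5, Trpm1 and Nyx did not overlap with those of the next gene below them, except between Nyx and Grm6.

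**Figure D1:**
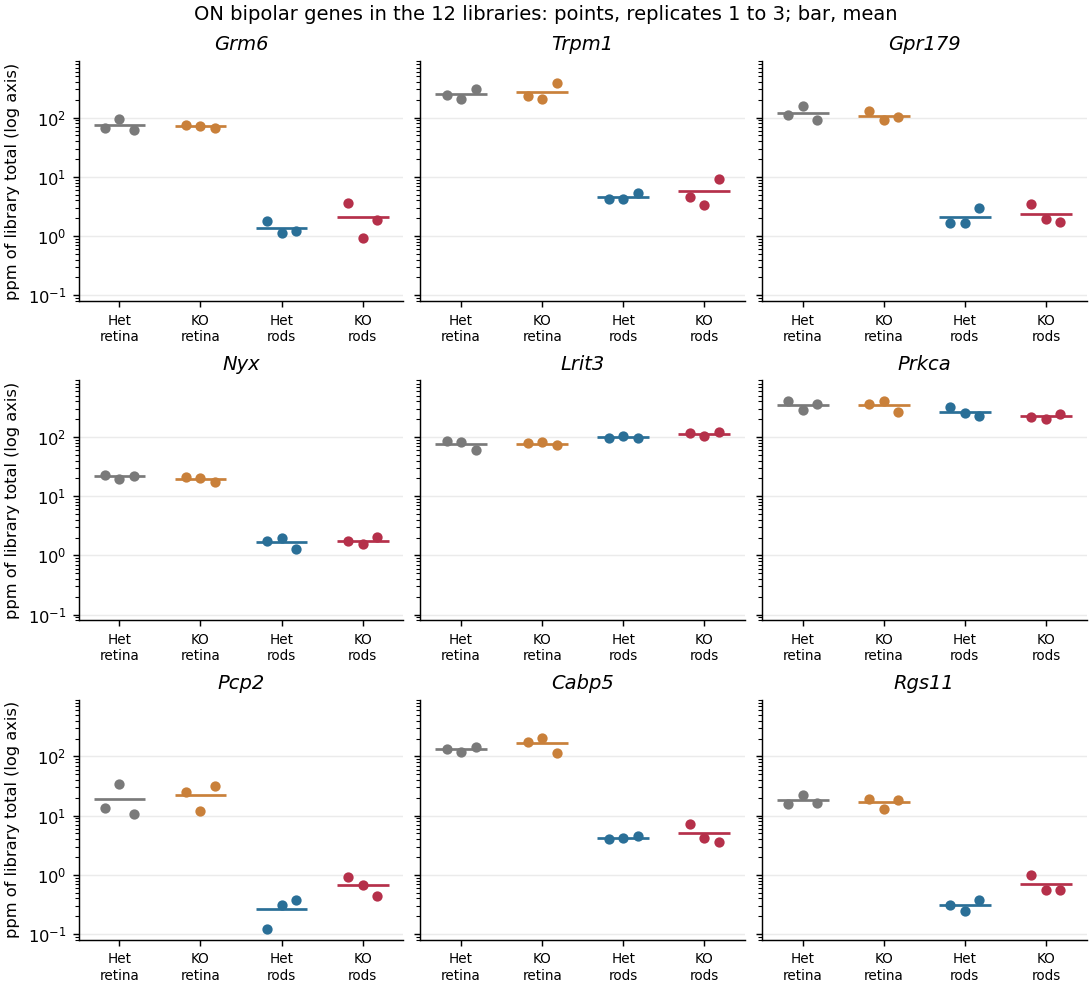
Deposited value in ppm of the library total (log axis) of each of the 9 genes in the 12 libraries, 1 panel per gene, with points for replicates 1 to 3 and a bar for the group mean. Lrit3 and Prkca stand at a similar height in retina and rods, while each of the other 7 genes is lower in all 6 rod libraries than in all 6 retina libraries.

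The question put to the rod and retina libraries of 1 genotype is which transcripts are depleted from rod TRAP RNA. In Het mice, 7 of the 9 genes were lower in rods (Grm6, Trpm1, Gpr179, Nyx, Pcp2, Cabp5 and Rgs11), Lrit3 was higher, and Prkca did not pass the test. Genes counted as changed had an adjusted p under 0.05 in limma and an absolute log2 fold change over 0.5. By this rule 36.8% of the 16110 genes tested were lower and 21.4% were higher, or 58.2% in either direction. Pcp2 and Rgs11 passed the filter on low values only through the retina libraries, so their calls carry no weight of their own. With at least 10 required in every library they were not tested, and 5 genes were lower. Leaving Pcp2 and Rgs11 aside, the log2 fold changes of the lower genes ran from −5.37 (Gpr179) to −3.23 (Nyx). The median over all genes tested was −0.11. The 3 values of each group did not overlap for 8 of the 9, Pcp2 and Rgs11 among them, beside 68.6% of all genes. In bulk RNA of this kind, fewer cells of a type and less RNA per cell cannot be told apart.

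Grm6, the glutamate receptor of the pathway, had deposited values of 959, 1354 and 912 in Het retina and of 29, 18 and 20 in Het rods. All rod values lay far below all retina values. Exons of Grm6 share 599 bases with the antisense gene Gm12660, which had values of 0 to 34. On the scale of trimmed mean of M values (TMM) normalisation, with a pseudocount of 2, its log2 fold change was −5.23 (SE 0.24, 95% confidence interval −5.79 to −4.67, adjusted p = 7.3e-07, limma), which left rods at 2.63% of the retina level.

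Trpm1, the channel that the pathway gates, had values of 3490, 3048 and 4377 in Het retina and of 68, 69 and 85 in Het rods. Replicate 3 was the highest in both fractions, and the fractions did not overlap. The log2 fold change was −5.33 (SE 0.17, interval −5.73 to −4.93, adjusted p = 2.4e-07, limma), or 2.54% of the retina level.

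Gpr179, the orphan receptor that anchors the RGS proteins at the dendritic tip, had values of 1580, 2317 and 1341 in Het retina and of 27, 27 and 48 in Het rods. The replicate that was highest in retina, 2, was not the highest in rods. Rods held 2.47% of the retina level, with a log2 fold change of −5.37 (SE 0.29, interval −6.03 to −4.72, adjusted p = 1.3e-06, limma).

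Rgs11, which speeds the shut-off of Go, had values of 229, 329 and 233 in Het retina and of 5, 4 and 6 in Het rods. The rod values stand for an estimated 4, 6 and 5 reads, close to the floor. The fitted log2 fold change was −5.02, and it moved from −5.34 to −4.20 as the pseudocount went from 0.5 to 8. Rods held 2.40% of the retina level. Exons of Rgs11 share 138 bases with Arhgdig on the opposite strand, and the strand used in counting is not given in the sources used here.

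Nyx encodes nyctalopin, a leucine-rich repeat protein on the bipolar dendrite that holds TRPM1 in place. Its values were 334, 288 and 324 in Het retina and 28, 32 and 21 in Het rods. The 2 fractions did not overlap, and the retina values lay close together. The log2 fold change was −3.23 (SE 0.22, interval −3.73 to −2.73, adjusted p = 4.4e-06, limma), and rods held 10.7% of the retina level. This interval did not overlap that of Grm6, Trpm1, Gpr179 or Cabp5 in Het mice, nor did that of Nyx in KO mice, −3.33 to −2.42. The difference between genes was not tested.

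Cabp5, a calcium-binding protein of rod bipolar cells and some cone bipolar cells, had values of 1915, 1705 and 2101 in Het retina and of 66, 68 and 74 in Het rods. Its log2 fold change was −4.49 (SE 0.15, interval −4.83 to −4.16, adjusted p = 2.4e-07, limma), and rods held 4.55% of the retina level. The replicates of each group lay close together.

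Pcp2, a modulator of Go and Gi proteins found in Purkinje cells and bipolar cells, was the most variable. It had values of 192, 501 and 153 in Het retina and of 2, 5 and 6 in Het rods, the latter an estimated 2, 8 and 5 reads. The fitted log2 fold change was −5.14, or 1.98% of the retina level, and it moved from −5.55 to −4.22 as the pseudocount went from 0.5 to 8. Pcp2 shares 941 exon bases with Pet100 on the opposite strand, whose own values were 112 to 170 in all 12 libraries.

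Lrit3 was the 1 member higher in rods. It encodes a leucine-rich repeat protein needed for TRPM1 and nyctalopin at the bipolar dendrite, and is made by photoreceptors. Its values were 1265, 1181 and 865 in Het retina and 1585, 1690 and 1566 in Het rods, and every rod value was above every retina value. The log2 fold change was 0.81 (SE 0.15, interval 0.47 to 1.16, adjusted p = 0.0014, limma), so that rods held 185% of the retina level. With library size as the only scaling it was 0.40 and the call was lost (adjusted p = 0.056, limma). That scaling moved the median of all genes from −0.11 to −0.51, and relative to this median Lrit3 stood at 0.92 on the TMM scale and at 0.91 with library size only.

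Prkca encodes protein kinase C alpha, whose antibody is the usual label of rod bipolar cells. In these RNA data it did not follow the other bipolar genes, with values of 5929, 4174 and 5181 in Het retina and of 5125, 4111 and 3721 in Het rods. The groups overlapped on the TMM scale, and the log2 fold change was 0.01 (SE 0.16, interval −0.35 to 0.37, adjusted p = 0.95, limma), with rods at 106% of the retina level. The interval leaves out a depletion of the size seen in the 7 genes above. Other scalings gave Prkca values on either side of 0, from −0.40 with library size only to 0.31 after each library's trend with transcript GC content (the GC trend) was removed, and relative to the median of all genes these stood at 0.11 and −0.05. Exons of Prkca share 30 bases with Apoh, whose values did not exceed 19.

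The comparison was made again within KO mice, whose libraries are separate from the Het libraries. The same 7 genes were lower and Lrit3 was higher, beside 36.5% lower and 25.7% higher of the 16121 genes tested (62.2% in either direction), and 8 of the 9 did not overlap between fractions, beside 72.1% of all genes. The log2 fold changes were −4.65 for Grm6, −5.10 for Trpm1, −4.95 for Gpr179 and −3.88 for Rgs11. Those of Nyx, Cabp5 and Pcp2 were −2.87, −4.50 and −4.27, with Pcp2 and Rgs11 again tested only through their retina values. The largest adjusted p of the other 5 was 1.5e-05, for Grm6 (limma). Lrit3 had a log2 fold change of 1.09 (SE 0.11, interval 0.83 to 1.34, adjusted p = 3.8e-05, limma). The KO rod level was 217% of the KO retina level. Prkca stood at −0.06 (SE 0.16, interval −0.43 to 0.30, adjusted p = 0.74, limma), and at −0.60 (adjusted p = 0.013, limma), past the threshold, with library size only, which moved the median of all genes from −0.02 to −0.55. Of the genes called, 36.8% were higher in Het rods and 41.3% in KO rods on the TMM scale, against 13.5% and 12.5% with library size only and 57.4% and 58.1% with the GC trend removed.

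**Figure D2:**
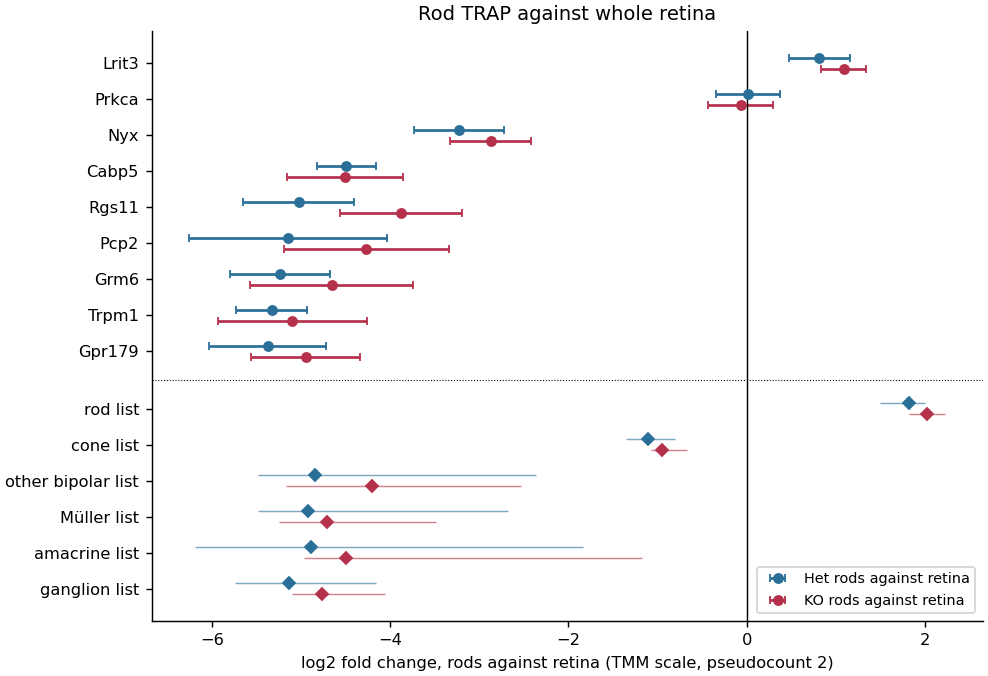
Log2 fold change of rods against retina (TMM scale, pseudocount 2) in Het (blue) and KO (red) mice: above the dotted line the 9 genes with 95% confidence intervals, below it the median of each marker list (diamond) with the range of its genes (line). Lrit3 lies right of 0, Prkca at 0, Nyx at −3.23 and −2.87, and the other 6 genes between −5.37 and −3.88, beside medians of −4.84 and −4.21 for the other bipolar markers. Pcp2 and Rgs11 were near the floor in rods, and their positions shift with the pseudocount. Some genes of the other bipolar, amacrine and ganglion lists were also near the floor in rods.

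What remained of the 7 depleted genes in rods was compared with markers of other cells. Summed in ppm, their level in rods was 2.28% of the retina level in Het and 2.72% in KO. The other bipolar markers were at 3.70% and 4.18%, Müller markers at 3.76% and 3.45%, amacrine markers at 4.03% and 5.32%, and ganglion cell markers at 2.07% and 2.27%. The sum of horizontal cell markers was higher, at 16.2% and 21.0%, as was Nyx alone among the 7. In Het rods that sum came mostly from Septin4 (466, 541 and 545), with Calb1 next at 27, 16 and 34. Septin4 had a log2 fold change of −1.37 in Het rods against Het retina. Every other horizontal cell marker lay at −3.17 or below. The largest part of the amacrine sum in Het rods came from Slc6a9 (275, 263 and 208), at −1.84 against Het retina, with Pax6 next at 108, 106 and 116. The largest part of the Müller sum in Het rods came from Glul (924, 1320 and 1380). Lrit3 and Prkca on the same scale of library size were at 131% and 75.8% in Het and at 146% and 65.1% in KO, while rod markers were at 273% and 304% and cone markers at 35.8% and 37.9%.

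The partners of the cascade fell on both sides of 0. Of 10 listed partners, 7 were lower in Het rods, between −5.50 and −0.91, and 3 were higher, beside 36.8% lower and 21.4% higher of all genes. The 4 with the highest mean values were Rgs9bp, the membrane anchor of RGS9 in photoreceptors, at 0.62 (adjusted p = 0.0028, limma), Gnb5, the G protein subunit bound to RGS proteins in photoreceptors and bipolar cells alike, at 1.33 (adjusted p = 2.5e-05, limma), Ric8b, a chaperone of G protein alpha subunits, at 1.06 (adjusted p = 7e-05, limma), and Gnao1, the alpha subunit of Go, at −2.97 (adjusted p = 4.8e-07, limma). The median of the list was −3.67, beside −0.11 for all genes. Gng13 and Gnb3, the gamma and beta subunits that join Go in ON bipolar cells and which are named here after their values were seen, were at −5.50 and −0.91. Gnb3 also serves cone transducin. Gng13 had only 5, 12 and 6 in Het rods, close to the floor. It passed the filter there only through its retina values, so its call and the −5.50 carry no weight of their own.

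The rod side of the synapse mostly showed the opposite sign. Of 12 listed genes of the rod terminal and of the proteins that reach across the cleft, 9 were higher and 2 lower in Het rods (median 0.90). Of all genes, 21.4% were higher and 36.8% lower. The list ran from −4.51 to 1.72, and Bsn, a scaffold of the active zone, was 1 of the 2 lower genes, at −2.29. Lrit1 and Lrit2, relatives of Lrit3, were at 1.35 and 1.40, Slc17a7, which loads glutamate into vesicles, at 1.16, and Cacna2d4, a subunit of the calcium channel of the terminal, at 0.95. The largest adjusted p of these 4 was 0.00077 (limma). Lrit3 at 0.81 lay within the range of the 9 that were higher, 0.55 to 1.72. Of 12 factors of bipolar cell fate, 10 were lower, beside 36.8% of all genes, among them Neurod4 at −5.40 and Sebox at −2.58. Only 8 of the 12 had enough signal for a test in the rod libraries alone, and the direction of the others carries no weight of its own. The 1 factor that was higher was Otx2, at 0.84 (adjusted p = 9.6e-05, limma), which photoreceptors also express.

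The next question is whether loss of Shp2 in rods altered these transcripts in the whole retina. None of the 9 genes passed the test, and neither did any of the 16863 genes tested (0.0%). An unadjusted p under 0.05 in limma was found for 140, fewer than would be expected with no effect at all. The test was thus strict here, and the absence of calls does not show that nothing changed. The median log2 fold change was −0.03 over the 9 genes and 0.00 over all genes. For no member did the 3 KO values lie all on 1 side of the Het values, beside 3.52% of all genes (1.54% with the KO higher).

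Grm6 had KO retina values of 1073, 1055 and 979, within the range of its Het values. Its log2 fold change was −0.03 (SE 0.18, interval −0.44 to 0.38, adjusted p = 1.0, limma), so changes of more than 0.44 in either direction lay outside the interval. Trpm1 had KO retina values of 3339, 3023 and 5507, with replicate 3 again the highest. Its log2 fold change was 0.09 (interval −0.54 to 0.71).

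Gpr179 (1900, 1325 and 1476) and Rgs11 (280, 185 and 267) were at −0.13 (interval −0.66 to 0.40) and −0.11 (interval −0.67 to 0.46). Nyx (308, 300 and 257) was at −0.13 (interval −0.49 to 0.24). All of them lay across the Het values. Lrit3 (1133, 1183 and 1049) was at 0.05 (interval −0.33 to 0.43) and Prkca (5224, 5833 and 3785) at −0.05 (interval −0.50 to 0.40). Neither stood apart from the controls.

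Cabp5 (2580, 2975 and 1667 in KO retina) had 2 values above and 1 below all Het values, at 0.30 (SE 0.21, interval −0.19 to 0.80, adjusted p = 1.0, limma). Without replicate 3 of both genotypes, left out after the values were seen, it was 0.61, still with an adjusted p of 0.89 (limma). Pcp2 (360, 171 and 457 in KO retina) had the widest interval, −0.89 to 1.51 around 0.31, and it moved to 0.83 without Het retina replicate 2 and to −0.01 without Het retina replicate 3. For Pcp2, any change from −0.89 to 1.51 is compatible with these libraries.

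The retina libraries differed from each other in ways that the genotype did not follow. Pcp2 and, less so, Grm6, Gpr179 and Rgs11 were high in Het replicate 2, and Pcp2 was also high in KO replicate 3. These are the 2 libraries in which GC-rich transcripts were highest against GC-poor ones, by 0.86 and 0.90 on the log2 scale, against −0.84 to 0.01 in the other 4. With that trend removed, the SD over the 6 retina libraries fell from 0.29 to 0.19 for Rgs11 and from 0.31 to 0.23 for Gpr179, which have transcript GC contents of 56.6% and 56.3%. For Prkca (46.4% GC) the SD fell from 0.24 to 0.14, as for the median gene (0.28 to 0.19). It stayed near its value for Pcp2 (0.76 and 0.74) and for Trpm1 (0.37 in both), and for Nyx it rose from 0.11 to 0.27. The part of the GC trend in the differences between libraries was not tested further.

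Trpm1 was highest in replicate 3 of both genotypes and both fractions. Melanocytes and the pigment epithelium also make Trpm1, and the sum of 8 pigment cell genes (Tyrp1, Dct, Slc45a2, Mlana, Pmel, Rpe65, Best1 and Ttr), a list drawn up after these values were seen, was highest in the same libraries. It was 225, 120 and 725 ppm in Het retina and 53.2, 134 and 1270 ppm in KO retina. In Het rods it was 5.72, 4.37 and 15.3, and in KO rods it was 1.66, 3.57 and 33.0. Not every gene of the list followed the sum. In Het retina Best1 had deposited values of 13, 7 and 5 and Ttr of 338, 531 and 424. The sum in Het retina replicate 3 came mostly from Dct (4944), Tyrp1 (2456) and Pmel (1758). Without replicate 3 of both genotypes the log2 fold change of Trpm1 in KO retina was −0.04, and without KO retina replicate 3 alone it was −0.20. The table does not separate the 2 Trpm1 starts, and the part of pigment cells in the Trpm1 values was not tested.

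**Figure D3:**
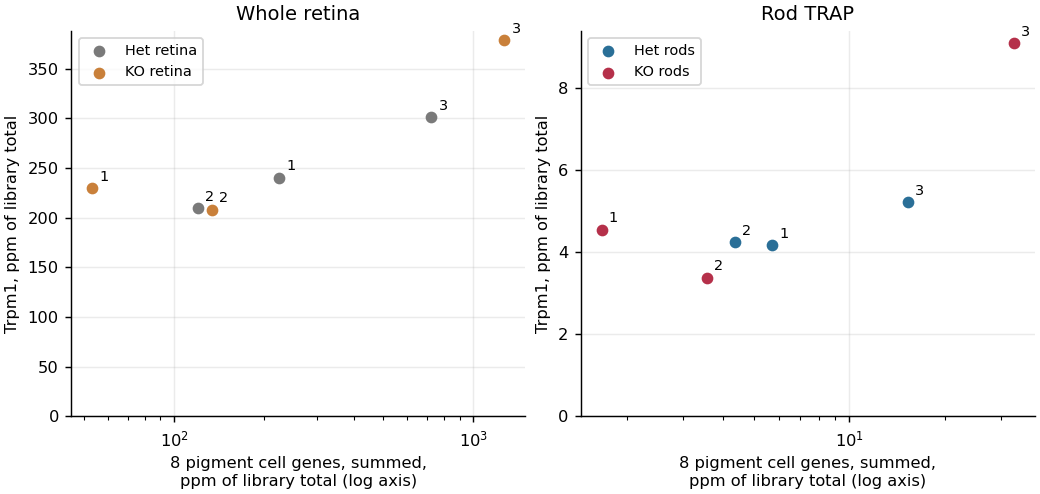
Trpm1 against the sum of 8 pigment cell genes, both in ppm of the library total (horizontal axis logarithmic), in the 6 retina libraries (left) and the 6 rod libraries (right), with replicate numbers beside the points. Replicate 3 lies highest on both axes for each genotype, with pigment sums of 725 and 1270 in retina and of 15.3 and 33.0 in rods.

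The last question is whether the KO altered these transcripts in rod TRAP RNA. Of the 9 genes, 7 passed the filter on low values, and none of the 7 was called, beside 13.1% of the 13055 genes tested (10.8% higher and 2.34% lower). Of the genes called, 82.2% were higher on the TMM scale, against 67.2% with library size only and 51.6% with the GC trend removed. In rods the GC trend followed the genotype, at −0.81 to −0.23 in Het and 0.28 to 0.76 in KO libraries, so the genotype and the trend cannot be told apart in the uncorrected values. The median log2 fold change was 0.23 over the 7 genes that passed the filter and −0.03 over all genes, and 6 of the 7 had a value above 0, beside 47.4% of all genes. With the GC trend removed Gpr179 (−0.20) and Nyx (−0.06) turned below 0. Groups without overlap were found for 1 of the 7 (Lrit3), beside 44.8% of all genes in either direction and 22.7% with the KO higher.

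Lrit3 was 1883, 1705 and 1946 in KO rods, and all 3 values lay above those of Het rods (1585, 1690 and 1566). Its log2 fold change was 0.26 (SE 0.08, interval 0.09 to 0.43, adjusted p = 0.033, limma), which passed the p-value limit, as did 25.7% of all genes, but not the limit on size. The interval leaves out a change of 0.5. Over the alternatives the value ranged from 0.19 to 0.30 with adjusted p from 0.017 to 0.27. It was 0.23 with the GC trend removed (adjusted p = 0.052, limma) and 0.29 after removal of the rod-depleted genes (adjusted p = 0.017, limma).

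Prkca was 3528, 3277 and 4039 in KO rods, at −0.18 (SE 0.11, interval −0.42 to 0.06, adjusted p = 0.24, limma). With the GC trend removed it was −0.02. The KO and Het values overlapped.

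Of the depleted genes, Grm6 was 59, 15 and 30 in KO rods. The highest and the lowest of its 6 rod values both came from KO libraries, and the log2 fold change was 0.49 (SE 0.42, interval −0.43 to 1.41, adjusted p = 0.41, limma). Trpm1 (74, 55 and 148) was at 0.26 (interval −0.43 to 0.95), and at −0.10 without KO rods replicate 3. Gpr179 (57, 32 and 28), Nyx (29, 25 and 33) and Cabp5 (118, 68 and 59) were at 0.23, 0.17 and 0.23, with adjusted p of 0.62, 0.66 and 0.51 (limma). With the GC trend removed they were at −0.20, −0.06 and 0.42, and Grm6 was at 0.18. None of these 5 genes stood apart from Het rods.

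Grm6, Gpr179, Cabp5, Pcp2 and Rgs11 were all highest in KO rods replicate 1, in which the markers of other bipolar cells summed to 32.3 ppm, against 19.3 to 21.8 in the other 5 rod libraries. Amacrine and ganglion cell markers were also highest there, at 51.2 and 23.7 ppm, against 32.8 to 41.6 and 12.9 to 18.4. Müller markers, at 153.5 ppm, and the sum of horizontal cell markers, at 41.8 ppm, were not highest there. They reached 227.2 in Het rods replicate 3 and 43.8 in KO rods replicate 2. In Het rods replicate 3 the Müller marker Vim alone had 976, against 75 to 303 in the other 5 rod libraries. Rlbp1 and Slc1a3 were highest in KO rods replicate 1, at 181 and 100, while the other Müller markers were highest elsewhere. The horizontal sum came mostly from Septin4, with deposited values of 621, 685 and 609 in KO rods. Calb1 was highest in KO rods replicate 1, at 45 against 16 to 34 in the other 5 rod libraries. The remaining horizontal cell markers had only 0 to 7 in rods. Without KO rods replicate 1 the log2 fold change was 0.03 for Grm6, −0.06 for Gpr179 and −0.06 for Cabp5. Without KO rods replicate 2 it was 0.94 for Grm6 (adjusted p = 0.084, limma) and 0.55 for Trpm1, and without Het rods replicate 3 it was 0.50 for Gpr179. The part of these cells in the values was not tested.

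Pcp2 (15, 11 and 7 in KO rods) and Rgs11 (16, 9 and 9) did not pass the filter. All KO values were above the Het values of 2, 5 and 6 and of 5, 4 and 6. In estimated reads these were 11, 12 and 6 against 2, 8 and 5 for Pcp2, where the groups overlapped, and 12, 10 and 8 against 4, 6 and 5 for Rgs11. Fitted without a filter, they were at 1.10 (SE 0.44, adjusted p = 0.10, limma) and 0.95 (SE 0.43, adjusted p = 0.15, limma), neither past the threshold. Reads of this number do not give a firm level.

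**Figure D4:**
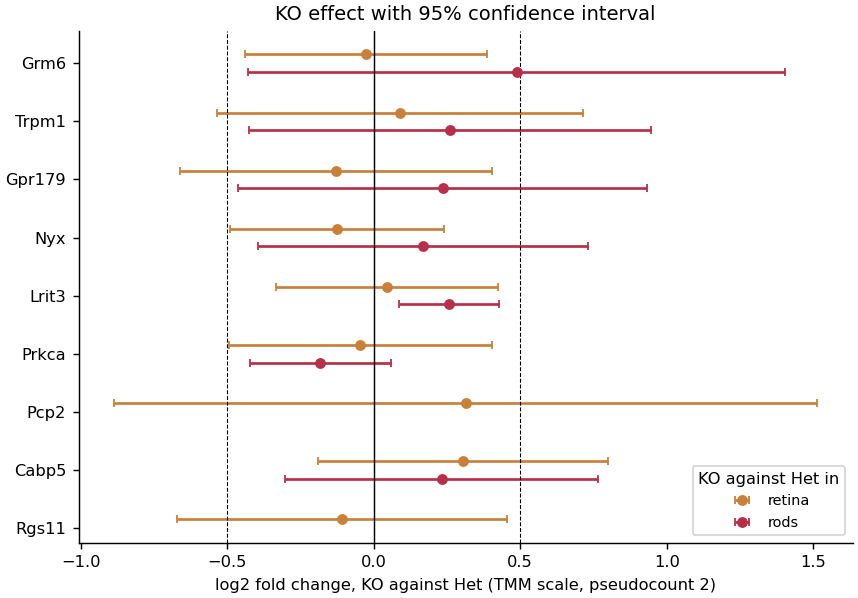
Log2 fold change of KO against Het (TMM scale, pseudocount 2) with 95% confidence intervals, in retina (orange) and rods (red), and dashed lines at the limits of −0.5 and 0.5. Every interval crosses 0 except that of Lrit3 in rods, 0.09 to 0.43, and Pcp2 and Rgs11 have no rod value because they did not pass the filter.

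An interaction term in 1 model of the 12 libraries tested whether rods and retina responded differently to the KO. None of the 9 genes and none of the 17192 genes tested was called (0.0%). An unadjusted p under 0.05 in limma was found for 563 genes, again fewer than would be expected with no effect. Pcp2 and Rgs11 entered this model only through their retina values, since they did not pass the filter in rods, and no size of a difference is given for them. The interaction uses the same libraries as the comparisons above.

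The other lists are given beside the 10.8% of all genes that were higher and the 2.34% that were lower in KO rods against Het rods. In 1 fit of all 12 libraries no gene was called, so each call named here was lost in that fit. Of the rod side of the synapse, 3 of 12 genes were higher (median 0.31 over the 12). These were Elfn1, the organiser that recruits mGluR6 across the cleft, at 0.77 (adjusted p = 0.0055, limma), Bsn, a scaffold of the active zone that was itself depleted from Het rods (−2.29), at 0.79 (adjusted p = 0.0056, limma), and Ctbp2, which encodes the ribbon protein RIBEYE, at 0.50 (adjusted p = 0.0045, limma). Their transcript GC contents were 57.7%, 59.8% and 55.0%, and the part of the GC trend in these calls was not tested. None of the 10 cascade partners, of the 8 tested bipolar markers or of the 8 tested fate factors was called. Of the 10 rod markers, Pde6g at 0.67 and Rom1 at 0.51 were higher (adjusted p = 0.020 and 0.018, limma). Of the 10 Müller markers, Clu at 0.53 and Apoe at 1.02 were higher (adjusted p = 0.035 and 0.013, limma), and of the 5 tested amacrine markers Slc6a9 was higher at 0.71 (adjusted p = 0.0053, limma). Transcript GC contents were 55.8% for Pde6g, 57.1% for Rom1, 55.6% for Clu, 59.5% for Apoe and 57.0% for Slc6a9. The part of the GC trend in these calls was not tested either.

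The pattern over the 12 libraries was compared between genes as the root mean square difference of log2 values, each gene centred on its own mean. Among the members, Grm6 and Gpr179 were the closest pair at 0.41, then Grm6 and Rgs11 at 0.44 and Pcp2 and Rgs11 at 0.45. Lrit3 and Prkca were 0.56 apart, and Lrit3 and Grm6 were 2.98 apart. Over all 17192 genes, those nearest to Grm6 were Hapln4 (0.21), Ephb1 (0.23) and Hpca (0.25), beside a median of 2.48 over all genes. Nearest to Trpm1 were Lgi2 (0.27), Dkk3 (0.28) and Ifit3 (0.29), and nearest to Rgs11 were Ppp2r2c (0.19), Pcsk6 (0.22) and Gsg1l2 (0.24). Nearest to Lrit3 were Kdm3b (0.05), Clec16a (0.07) and Uba1 (0.08), where the median over all genes was 0.67. The measure follows mostly the difference between rods and retina, which all 12 libraries share. Pcp2 and Rgs11 were near the floor in rods, so their distances, and the genes nearest to Rgs11, depend in part on the pseudocount.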

How the data were processed

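The authors deposited 1 table of whole-number values per gene and library, listed by Ensembl identifier and symbol, with 0 columns of other samples. These signal values were made by the authors, who scaled each library before the table was deposited, as totals within a fraction differ by at most 0.017%. The factor of each library (0.6435 to 1.4555) was inferred from the gaps between low values and is not stated by the authors. The submitters' processing notes name CASAVA 1.8.2, HISAT2, DESeq2, edgeR and the build GRCm39, with no role given. The counting tool, strand and annotation are not given in the sources used here.

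Values were scaled with TMM factors, raised by a pseudocount of 2, transformed to log2 and fitted with limma 3.58.1 (trend, robust) in R 4.3.3, on the libraries compared. A gene was tested with about 10 in at least 3 libraries and a sum of at least 15, and p-values were adjusted by Benjamini-Hochberg over all genes tested. The limits of a call were 0.05 for the adjusted p and 0.5 for the size of the log2 fold change. The method was tested on simulated data. Groups came from the genotype and tissue labels and replicate numbers from the titles. Transcript length and GC content were read from GENCODE on GRCm38 through Ensembl identifiers, for at least 98.4% of tested genes, and promoters from RefSeq on GRCm38.p6. Python 3.11.15 with NumPy 2.4.6 and matplotlib 3.10.9 was used.

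The members, lists and tests were chosen with earlier results of these data known. All members are named. From each other list the text names at most the 4 genes with the highest mean and those called between KO and Het, and the nearest 3 genes to each of 4 members. The pigment list, CATGTG, and the names Gng13, Gnb3, Vim and Slc1a3 were added after values were seen, and Ptpn11 was added as the targeted gene.

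Same-numbered Het rod and Het retina libraries deviated together (correlations 0.47, 0.41 and 0.25). The numbers come from the titles, and with 3 libraries a group these correlations cannot decide whether they mark pairs. Alternatives were RLE or library size, pseudocounts of 0.5 and 8, no filter or a stricter one, no trend or robust step, 1 fit of all libraries, removal of a trend with GC content, a replicate block, and leaving out each library.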

Additional observations from a re-analysis of the deposited data

How the results depend on the processing

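The 7 genes lower in rods were called in Het and KO mice under every alternative in which they were tested. The count fell to 5 where Pcp2 and Rgs11 failed the filter (the stricter filter, or 1 Het retina library fewer), and rose to 8 in KO mice with library size only, which added Prkca at −0.60. Leaving out 1 library, it ranged from 5 to 7 in Het and stayed at 7 in KO mice. The counts of 0 members in the KO comparisons and the interaction did not move. Lrit3 in Het rods lost its call with library size only. The replicate block changed no call of a member: in Het rods, blocked by number, 7 genes remained lower and Lrit3 stayed at 0.81. KO rods and KO retina correlated at 0.33, −0.01 and 0.18, KO and Het retina at 0.40, −0.59 and −0.14 and KO and Het rods at 0.18, 0.03 and 0.03 by number. With 3 libraries a group, such correlations cannot decide whether libraries of the same number belong together.

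No value that turned sign passed both limits of a call. Prkca in Het rods was −0.40 with library size only, −0.21 with the stricter filter and −0.26 to 0.11 without a library. In KO rods against KO retina it was 0.36 with the GC trend removed, with or without the block, and −0.42 to 0.0181 without a library. With the GC trend removed, Gpr179 in KO against Het rods was −0.20 and Nyx −0.063, with or without the block. Replicate 3 of both genotypes was left out after seeing the data, and gave, in KO retina, −0.041 for Trpm1, −0.0813 for Lrit3, 0.15 for Prkca and −0.32 for Pcp2, and −0.0209 for Nyx in KO rods. Leaving out 1 library, the ranges in KO retina were −0.12 to 0.15 for Grm6, −0.20 to 0.30 for Trpm1, −0.28 to 0.10 for Gpr179, −0.10 to 0.13 for Lrit3, −0.18 to 0.11 for Prkca, −0.0073 to 0.83 for Pcp2 and −0.22 to 0.12 for Rgs11. In KO rods they were −0.10 to 0.55 for Trpm1, −0.0602 to 0.50 for Gpr179 and −0.0601 to 0.47 for Cabp5.

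Counts over all genes moved by over 1.5 times. Those called in KO rods fell from 1711 to 343 with the GC trend removed (403 with the block), to 1102 without trend and robust steps, to 887 without Het rods replicate 1, to 1100 without KO rods replicate 2 and to 0 in 1 fit of all libraries, where 3135 genes kept an unadjusted p under 0.05. In Het rods against retina 9376 became 5082 with the stricter filter and 5335 without Het retina replicate 1. In KO mice 10033 became 5629 with the stricter filter, 5799 without KO retina replicate 1 and 6413 without replicate 2. In KO retina 1 gene was called without trend and robust steps, without Het replicate 1 or without KO replicate 1, and in the interaction 1 without Het rods replicate 3. The causes were not tested. With 3 libraries a group, rod values of Pcp2 and Rgs11 at an estimated 2 to 12 reads limit what can be seen.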
